A study of Mus musculus with 9 samples.

Results

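Caveolae are flask-shaped pits of the plasma membrane that carry albumin and other plasma proteins across endothelial cells. The genes followed here are the 10 that build, shape or restrain them, taken by gene symbol from the table of 54532 genes: the caveolins Cav1 and Cav2, the cavins Cavin1, Cavin2 and Cavin3, the neck and scission genes Ehd2, Pacsin2 and Dnm2, the diaphragm gene Plvap and the transporter gene Mfsd2a. All 10 were found, and 9 of them were expressed highly enough to be tested; Cavin2 was not. The RNA of b.end3 cells was sequenced in 9 libraries. The labels describe the line as endothelial cells of brain microvessels from mouse strain C57BL/6. The Ctrl group held 3 untreated libraries. The Ep1 and Ep2 groups held 3 libraries each of monolayers that were incubated for 90 min with 300 µg/mL porfimer sodium, a photosensitizer that forms reactive oxygen species under red light, and then exposed to a 635 nm laser at 100 mW/cm2. The light dose was 10 J/cm2 in Ep1 and 20 J/cm2 in Ep2. No library received the drug alone or the light alone, so the effects of drug and light cannot be told apart, and the time between light and harvest is not given in the sources used here. The growth notes call the line rat, while the organism field says Mus musculus. Nothing states that the libraries came from separate cultures, so the p-values measure the spread between these libraries, which may be technical.

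In a caveola, caveolin 1 forms the membrane coat with caveolin 2, and the cavins, led by cavin 1, wrap it from the cytosol. The ATPase EHD2 holds the neck at the membrane, PACSIN2 bends it, and the GTPase dynamin 2 cuts the vesicle free. PLVAP forms the diaphragm over caveolae and fenestrae of leaky vessels and is low in the mature blood-brain barrier, whereas the lipid transporter MFSD2A is known there for keeping caveola formation low.

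The total was 16240688 to 19509225 fragments per library. Ep2 replicate 1 stood apart from the other Ep2 libraries, with a chi-square per gene of 10.1 to 15.2 against them, compared with 2.81 to 5.66 for all other pairs within a group, and results that rest on it are given with and without it. Endothelial identity was weak in every group. Of 12 defining endothelial markers, 3 reached 1 FPKM (fragments per kilobase of gene per 1000000 fragments) in any library, Emcn and Erg were at 0 in all 9 libraries, and Pecam1 was at most 0.242 FPKM. The 12 markers summed to 4.39 to 5.20 FPKM in the Ctrl libraries, to 4.41 to 5.09 in those of Ep1 and to 3.65 to 5.08 in those of Ep2. Of the 7 epithelial markers, the keratins Krt8, Krt18 and Krt19 carried nearly the whole sum, while Krt5 was at 0 in all libraries, Krt14 was at most 0.0597 FPKM, Cdh1 at most 0.103 and Epcam 0.607 to 2.03. The 7 markers summed to 1030 to 1080 FPKM in untreated libraries, to 937 to 1040 at the lower light dose and to 1160 to 1370 at the higher one. Pericyte and smooth muscle markers summed to 2.76 to 4.62 FPKM over all libraries, astrocyte and neuron markers to 1.59 to 2.78, and leukocyte markers to 0.135 to 0.275. The data thus go against the endothelial label, and the material is called the cells labelled b.end3 below. The keratin sum was highest in Ep2, where most of the differences below lie, and its part in them was not tested. In bulk RNA, fewer cells of a type and less RNA per cell cannot be told apart.

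The 250 bases upstream of the start are shown for Cav1, Cavin1 and Mfsd2a, because the differences of these genes at the higher light dose kept their call in every refit that was run. The sequences are from RefSeq on GRCm38.p6, written 5′ to 3′ on the strand of the gene, and capitals mark a GC box (GGGCGG) or a CCAAT box (CCAAT) read on either strand. The windows lie at chr6:17306085-17306334 (plus strand) for Cav1, chr11:100970618-100970867 (minus strand) for Cavin1 and chr4:122961189-122961438 (minus strand) for Mfsd2a. The Cavin1 window is upstream of the RefSeq start used here. It lies inside the gene span of the deposited data (chr11:100956733-100970887). Positions below count from the RefSeq start.
Cav1: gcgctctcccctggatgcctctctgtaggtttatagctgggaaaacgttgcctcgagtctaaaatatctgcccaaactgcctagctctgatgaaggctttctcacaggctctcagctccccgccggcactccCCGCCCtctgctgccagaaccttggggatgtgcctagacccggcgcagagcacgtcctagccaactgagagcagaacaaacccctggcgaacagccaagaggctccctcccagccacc
Cavin1: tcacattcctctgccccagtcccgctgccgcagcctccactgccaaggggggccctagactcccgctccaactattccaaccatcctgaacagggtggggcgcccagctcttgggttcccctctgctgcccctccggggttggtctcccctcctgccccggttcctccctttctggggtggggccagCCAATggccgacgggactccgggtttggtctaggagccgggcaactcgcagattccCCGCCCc
Mfsd2a: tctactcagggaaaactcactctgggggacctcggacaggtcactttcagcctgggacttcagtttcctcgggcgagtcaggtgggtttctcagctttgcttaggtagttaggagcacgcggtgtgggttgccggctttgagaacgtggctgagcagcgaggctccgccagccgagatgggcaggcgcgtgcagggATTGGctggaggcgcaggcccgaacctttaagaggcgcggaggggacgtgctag
The Cav1 window held a GC box at -118 from the start site, and the Cavin1 window a CCAAT box at -63 and a GC box at -7. RefSeq lists a later Cav1 start as well, whose window (chr6:17307390-17307639) held none of the GC, CCAAT and TATA boxes. In the Mfsd2a window there was a CCAAT box at -54 and no GC box. Neither motif is rare: of 32851 upstream windows of the same length, 32.7% held a GC box and 33.8% a CCAAT box. A TATA box (TATAAA, 12.4% of all windows) was found at -221 for Cav1 on the opposite strand, without overlap with the GC box, and in neither of the other windows. An E-box (CACGTG, 6.02%), an AP-1 element (TGANTCA, 6.75%), a cAMP response element (TGACGTCA, 1.55%) and a sterol regulatory element (TCACNCCAC, 1.05%) were not found on either strand of the 3 printed windows. The GC content was 59.6% for Cav1, 67.6% for Cavin1 and 61.6% for Mfsd2a, against a median of 52.4% over all windows. RefSeq windows were at hand for 8 of the 10 genes and not for Cavin3 and Plvap. These matches are a description of letters and do not locate a binding site.

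The 10 genes spanned more than 3 orders of magnitude in untreated cells. Cavin1 was the most abundant at 312 ± 5.12 FPKM (SD, n = 3), above 98.8% of the tested genes. Cavin3 (76.5 ± 2.39 FPKM) and Ehd2 (74.7 ± 2.12) followed and overlapped each other. Cav1 (51.9 ± 2.85 FPKM) and Pacsin2 (48.3 ± 1.11) also overlapped, and Cav2 (29.7 ± 1.63) and Dnm2 (25.8 ± 0.846) were next, separated in Ctrl and Ep1 but not in Ep2. Mfsd2a stood at 7.16 ± 0.384 FPKM, Plvap at 0.831 ± 0.18 and Cavin2 at 0.119 ± 0.0324, each separated from its neighbours in every group. In Ep2 the order changed at 1 place, where the mean of Ehd2 passed that of Cavin3 with overlapping libraries.

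**Figure D1:**
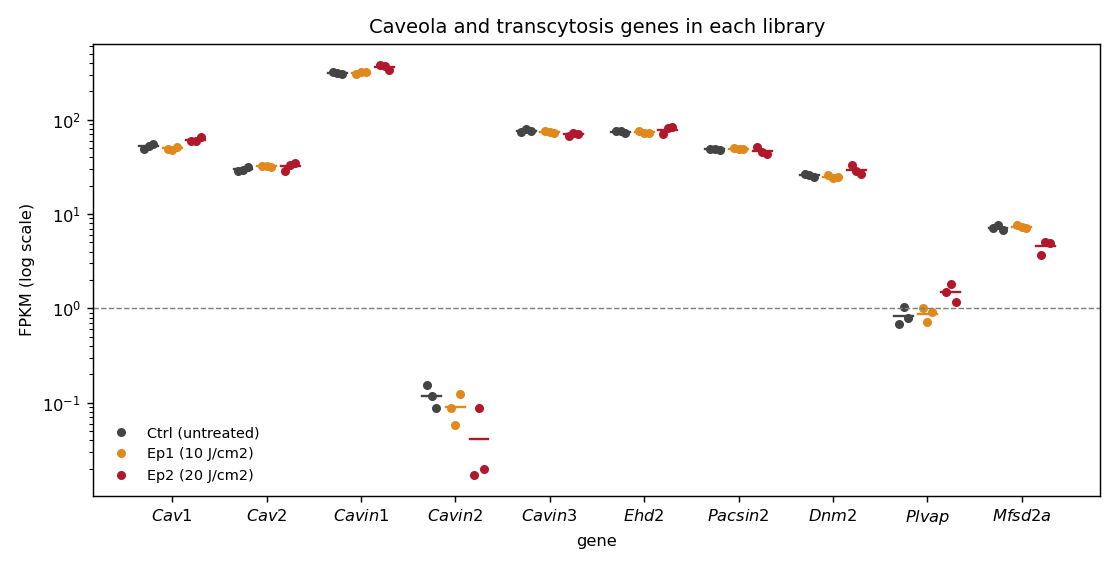
FPKM (log scale) of the 10 genes in each of the 9 libraries, with points for libraries, short bars for group means and a dashed line at 1 FPKM, the level used to choose genes for testing. Cavin1 lies at 302 to 383 FPKM in every library, Mfsd2a drops from 6.85 to 7.68 in Ctrl and Ep1 to 3.68 to 5.04 in Ep2, and Cavin2 stays at 0.153 or below.

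The first question was whether the lower light dose changed these genes. Differences were tested with limma on log2(FPKM + 1) over 11727 genes with Benjamini-Hochberg adjustment, and a gene was called at an adjusted p below 0.05. For Ep1 against Ctrl, limma called 0 of the 9 tested genes, 0 of them had an unadjusted p below 0.05, and voom on the recovered fragments also called 0. Of all tested genes, 11.3% were called in this comparison, a share that fell when 1 library was left out. It was 3.36%, 1.65% and 8.91% with Ctrl replicates 1, 2 and 3 omitted in turn, and 3.25%, 7.24% and 1.71% with the Ep1 replicates omitted in the same way. The largest fitted difference was that of Cav2, at 0.11 on the log2 scale (95% confidence interval -0.05 to 0.27), and that of Cav1 was -0.06 (-0.19 to 0.06). For Plvap, the scarcest tested gene, the interval ran from -0.24 to 0.32, so that differences of this size were not detectable here. The libraries of both groups overlapped for all 9 genes, whereas they did not overlap for 41.3% of all tested genes. With the additional fold threshold of the study, an absolute log2 fold change above 0.6, 0 of the 9 genes and 0.793% of all tested genes were called.

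At the higher light dose, the main coat genes Cav1 and Cavin1 and the diaphragm gene Plvap rose against Ctrl, and Mfsd2a and, in a marginal call, Cavin3 fell. These 5 of 9 called genes compare with 53.2% of all tested genes, so the share was close to the background. In the upward direction 3 of 9 were called against 23.9% of all genes, and in the downward direction 2 of 9 against 29.3%. Plvap entered the test only through its Ep2 libraries, so these counts are a description. Under a filter at 5 FPKM, where Plvap was not tested, 2 of 8 genes were higher and 2 lower. Of all 7535 genes tested under that filter, 2029 were higher and 2807 lower, 64.2% in all. The 2 groups did not overlap for 5 of 9 genes, compared with 59.7% of all genes. With the pseudocount of 1, none of the 9 genes passed the fold threshold as well, which 9.17% of all genes did. With a pseudocount of 0.1, Plvap (0.78, limma adjusted p = 0.016) and Mfsd2a (-0.66, 0.00077) were past it, as they were with voom (0.87 and -0.66). The share of all genes past it in those fits is not given here, and 9.17% holds only for the pseudocount of 1. The median log2 fold change was 0.10 over the 9 genes and -0.03 over all tested genes. Without Ep2 replicate 1, limma called 7 of 9 genes and 55.2% of all genes.

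**Figure D2:**
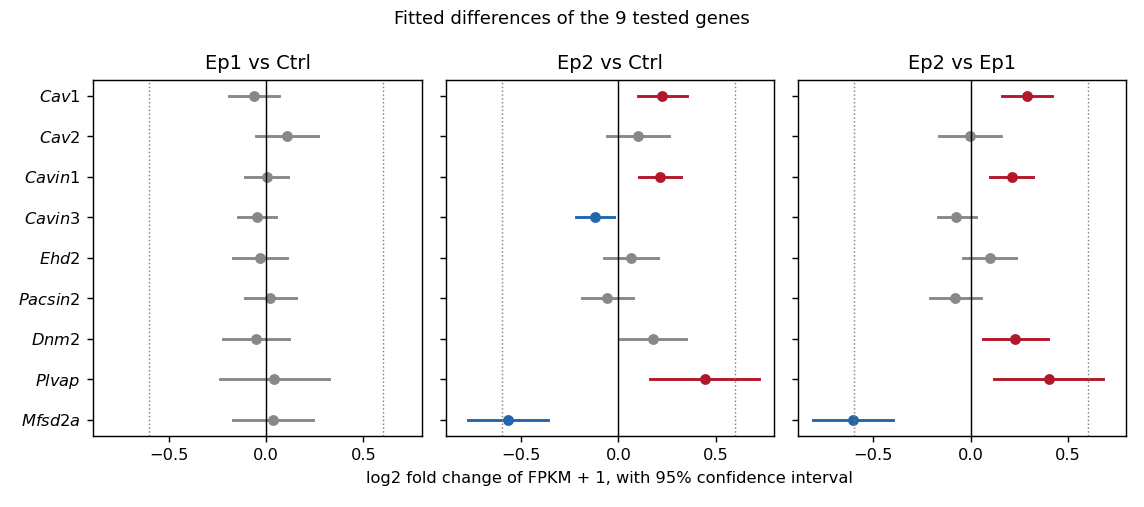
Fitted log2 fold change of FPKM + 1 for the 9 tested genes in the 3 comparisons, with bars for the 95% confidence interval, red for genes called higher, blue for genes called lower and grey for genes not called. Dotted lines mark the fold threshold of 0.6, and only the Mfsd2a difference between Ep2 and Ep1, at -0.60, lies just past it.

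Cavin1 encodes the cavin that every caveolar coat needs. It was measured at 316, 313 and 306 FPKM in Ctrl, at 302, 318 and 318 FPKM in Ep1 and at 383, 365 and 338 FPKM in Ep2 (gene at chr11:100956733-100970887, minus strand). Every Ep2 library lay above all Ctrl and Ep1 libraries, which overlapped each other. The log2 fold change of Ep2 over Ctrl was 0.21 (SE 0.0489, limma adjusted p = 0.00493), a mean 16.1% higher.

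Cav1, the caveolin without which caveolae do not form, rose by a like amount. Its Ctrl libraries gave 48.9, 52.5 and 54.5 FPKM, its Ep1 libraries 49.4, 47.7 and 51.8 FPKM and its Ep2 libraries 58.6, 59.3 and 64.8 FPKM. Again the Ep2 libraries were above all others, with a log2 fold change over Ctrl of 0.23 (SE 0.0564, limma adjusted p = 0.00779) and a mean 17.3% higher. Cav2, whose product needs caveolin 1 to reach the surface, lies 17219 bases upstream of Cav1 on the same strand of chromosome 6 (Cav2 at chr6:17281185-17289115, Cav1 at chr6:17306335-17341452). It showed 28.3, 29.4 and 31.5 FPKM in Ctrl, 32.3, 32.5 and 31.2 FPKM in Ep1 and 28.4, 32.8 and 34.7 FPKM in Ep2. The Ep2 libraries overlapped both other groups, and the difference of 0.10 (95% confidence interval -0.06 to 0.26) did not pass with limma (adjusted p = 0.264). Leaving out Ep2 replicate 1, the lowest of the Ep2 libraries, gave 0.18 (limma adjusted p = 0.0175). Within 250000 bases of the pair, the other tested genes were Tes, at 40.5 FPKM in Ctrl and 41.4 in Ep2 and not called, and Met, which rose from 9.22 to 11.6 FPKM (log2 fold change 0.30, limma adjusted p = 0.000455).

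Cavin3 was the coat gene that fell. It encodes the cavin that binds protein kinase C delta and joins the coat through cavin 1. Its values were 74.1, 78.9 and 76.4 FPKM in Ctrl, 76.6, 73.5 and 71.7 FPKM in Ep1 and 67.8, 72.5 and 70.4 FPKM in Ep2. All Ep2 libraries were below the Ctrl libraries but overlapped Ep1, and the log2 fold change over Ctrl was -0.12 (SE 0.0433, limma adjusted p = 0.0397). This call was marginal: the log2 fold change was -0.07 (adjusted p = 0.179) with median centring, -0.10 (0.105) with voom and -0.12 (0.0535) with a replicate block. It was also lost in limma refits without Ctrl replicate 2 (log2 fold change -0.10, adjusted p = 0.141), Ctrl replicate 3 (-0.12, 0.0792), Ep2 replicate 1 (-0.10, 0.0914) or Ep2 replicate 3 (-0.12, 0.0671). Counting every refit, the call was kept in 4 and lost in 9.

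Cavin2, which shapes endothelial caveolae in lung and fat, was almost silent and was not tested. The recovered fragments numbered 9, 7 and 5 in Ctrl, 5, 3 and 7 in Ep1 and 1, 5 and 1 in Ep2. This gave 0.369 fragments per 1000000 in Ctrl (exact Poisson 95% interval 0.228 to 0.564, counting error only) and 0.132 in Ep2 (0.0529 to 0.271). The intervals overlapped, which is not a test of the difference. In a limma fit with no filter on low values, the difference of Ep2 from Ctrl was -0.10 (adjusted p = 0.152).

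Ratios of FPKM within a library compare the coat genes per length and do not depend on library size. The ratio of Cav2 to Cav1 was 0.579, 0.560 and 0.578 in Ctrl, 0.655, 0.681 and 0.602 in Ep1 and 0.485, 0.553 and 0.536 in Ep2. It was thus above Ctrl in every Ep1 library and below Ctrl in every Ep2 library. Cavin3 to Cavin1 averaged 0.245 ± 0.00972 (SD, n = 3) without treatment, 0.237 ± 0.015 with the lower light dose and 0.195 ± 0.016 with the higher one, with all Ep2 libraries below the rest. Cavin1 to Cav1 overlapped across the groups at 6.02 ± 0.429, 6.30 ± 0.309 and 5.97 ± 0.677, and Cavin2 stayed at or below 0.000483 of Cavin1 in all libraries. Cavin2 to Cavin1 was lower in every Ep2 library than in Ctrl, but it rests on few fragments. These ratios are given as a description, with no test.

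**Figure D3:**
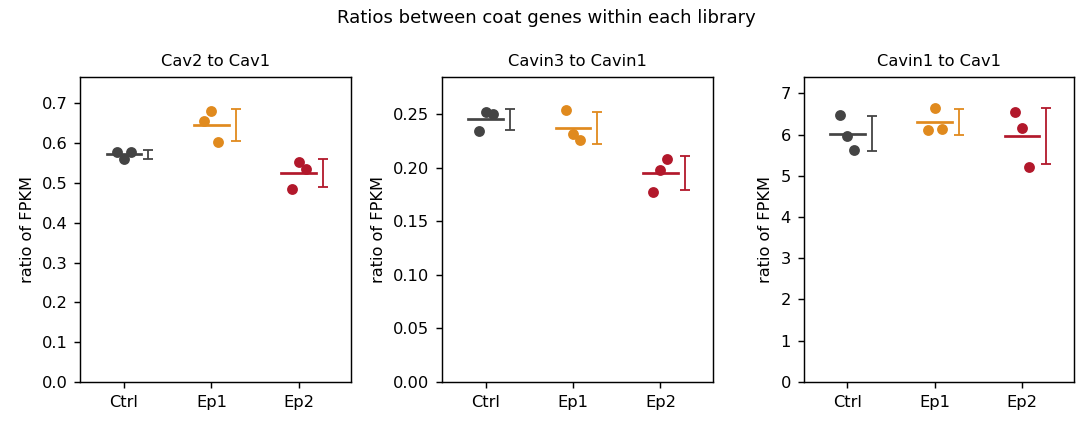
Ratios of FPKM between coat genes within each library, with points for the 3 libraries of a group, a bar for their mean and a bracket for 1 SD to either side. Cav2 to Cav1 is highest in Ep1 (mean 0.646) and lowest in Ep2 (0.525), Cavin3 to Cavin1 is lowest in Ep2, and Cavin1 to Cav1 overlaps across the groups.

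Of the neck and scission genes, Ehd2 and Pacsin2 were not called in any comparison of all libraries. Ehd2 was at 76.5, 75.1 and 72.4 FPKM in Ctrl, 74.8, 71.7 and 72.6 FPKM in Ep1 and 70.3, 81.4 and 83.5 FPKM in Ep2. Pacsin2 gave 49.0, 48.9 and 47.1 FPKM, then 49.5, 48.9 and 48.8 FPKM, then 51.2, 45.3 and 43.1 FPKM in the same groups. For both genes Ep2 replicate 1 lay on the other side of the Ctrl range from its fellow replicates, and neither difference from Ctrl was called (Ehd2 0.07, 95% confidence interval -0.07 to 0.20, and Pacsin2 -0.06, -0.19 to 0.07). Without that library, limma called Ehd2 higher (0.14, adjusted p = 0.0148) and Pacsin2 lower (-0.13, adjusted p = 0.0215). The 438 bases that Pacsin2 shares with Gm5417 on the same strand leave its counts uncertain, and Gm5417 was at 11.6 FPKM in Ctrl and 7.73 in Ep2.

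Dnm2 encodes the dynamin of most tissues. It was measured at 26.6, 25.9 and 24.9 FPKM in Ctrl, 25.8, 24.0 and 24.8 FPKM in Ep1 and 33.2, 28.8 and 26.3 FPKM in Ep2. The Ep2 libraries were the most scattered, and their lowest lay within the Ctrl range. The log2 fold change of Ep2 over Ctrl was 0.18 (SE 0.0749, limma adjusted p = 0.07) and passed with median centring (0.23, adjusted p = 0.0296), a replicate block (0.18, 0.0371), voom (0.21, 0.0171) or without Ep2 replicate 3 (0.25, 0.011). Without Ep2 replicate 1, the highest Ep2 library, it was 0.09 (limma adjusted p = 0.18), and with no filter the adjusted p was 0.16. Its gene overlaps 2 genes on the opposite strand. These are Tmed1 over 207 bases, at 25.1 FPKM in Ctrl and 15.6 in Ep2, and Mir199a-1 over 70 bases, at 8.2 in Ctrl and 18.4 in Ep2. Whether the counting used strand is not given in the sources used here.

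Plvap rose from a level near the lowest that was tested. Its Ctrl libraries gave 0.679, 1.03 and 0.786 FPKM, its Ep1 libraries 1.01, 0.720 and 0.922 FPKM and its Ep2 libraries 1.48, 1.83 and 1.18 FPKM. All Ep2 libraries were above all others, and without them the gene would not have entered the test, which required 1 FPKM in 3 libraries (1 in Ctrl, 1 in Ep1 and 3 in Ep2 reached it). The log2 fold change over Ctrl was 0.44 (SE 0.124, limma adjusted p = 0.0136). Since a pseudocount of 1 understates changes of such low values, the fold change was 0.78 with a pseudocount of 0.1 and 0.87 with voom. The recovered fragments summed to 95 in Ctrl, 95 in Ep1 and 163 in Ep2, or 1.67 (exact Poisson 95% interval 1.35 to 2.04), 1.76 (1.42 to 2.15) and 3.06 (2.61 to 3.57) fragments per 1000000. These intervals hold counting error only, without the spread between libraries, and are not a test of the difference. Without Ep2 replicate 2 the difference was 0.35 (limma adjusted p = 0.0538). Gtpbp3, which overlaps Plvap on the opposite strand over 1819 bases, went from 10.1 FPKM in Ctrl to 6.71 in Ep1 and 4.54 in Ep2.

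Mfsd2a showed the largest fall among the 9 genes. Its values were 7.05, 7.59 and 6.85 FPKM in Ctrl, 7.68, 7.31 and 7.11 FPKM in Ep1 and 3.68, 5.04 and 4.90 FPKM in Ep2. Ctrl and Ep1 overlapped, and the highest Ep2 library was below the lowest of either. From Ctrl to Ep2 the mean fell by 36.6%, with a log2 fold change of -0.57 (SE 0.0919, limma adjusted p = 0.000709). Over the alternative fits this value ranged from -0.66 to -0.52, and over the refits without 1 library from -0.63 to -0.45, called each time. The gene lies at chr4:122946850-122961188 on the minus strand.

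The difference between both light doses was tested directly by comparing Ep2 with Ep1. Here 5 of 9 genes were called, against 44% of all tested genes. Higher in Ep2 were Cav1 (log2 fold change 0.29, limma adjusted p = 0.00282), Cavin1 (0.21, 0.00676), Plvap (0.40, 0.026) and Dnm2 (0.23, 0.0319), 4 of 9 against 18.8% of all genes. Mfsd2a alone was lower (-0.60, limma adjusted p = 0.000725), against 25.2% of all genes, and was the 1 gene past the fold threshold with the pseudocount of 1, which 5.9% of all genes passed. Without Ep2 replicate 1 its difference was -0.49, short of that threshold. Plvap was also past it with a pseudocount of 0.1 (0.69, limma adjusted p = 0.0322) and with voom (0.78, 0.0172), but was not called with no filter (adjusted p = 0.054). The share of all genes past the threshold with that pseudocount or with voom is not given here. Plvap entered this test only through its Ep2 libraries, so these counts are a description. With the filter at 5 FPKM, where Plvap was not tested, 3 of 8 genes were higher and 1 lower. Of all 7535 genes tested with that filter, 1591 were higher and 2544 lower, 54.9% in all. Libraries did not overlap for 5 of 9 genes and for 54.4% of all genes. This comparison and that of Ep2 with Ctrl share the Ep2 libraries. The share of upward calls among all genes called, 42.8% here, became 55.5% with median centring. Without Ep2 replicate 1, limma called 6 of the 9 genes and 44.7% of all genes: Ehd2 (0.17, adjusted p = 0.0076) and Pacsin2 (-0.15, 0.0137) were then called and Dnm2 was not (0.14, 0.0575). Without Ep1 replicate 2, Ep1 replicate 3 or Ep2 replicate 2, 3 genes were called, against 35.4%, 35.3% and 39.2% of all genes. In these refits Dnm2 (0.21, 0.23 and 0.24, with limma adjusted p = 0.0999, 0.079 and 0.0594) and Plvap (0.34, 0.42 and 0.31, with adjusted p = 0.088, 0.0558 and 0.0936) no longer passed.

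Other genes of these routes were read from lists of relatives and partners, each beside the background of 23.9% higher and 29.3% lower in Ep2 against Ctrl. Of the caveolin and cavin relatives, Cav3 was at 0 in all libraries, and Cavin4, known from muscle, rose from 4.71 ± 0.461 to 9.29 ± 0.339 FPKM (log2 fold change 0.85, limma adjusted p = 2.1e-05). Among 8 tested neck and scission relatives, 3 rose and 3 fell (median -0.07). Dnm1, the dynamin best known from neurons, rose from 4.24 to 7.15 FPKM, and Pacsin3, a relative of Pacsin2, fell from 4.85 to 2.51 FPKM. The raft scaffolds rose in 4 of 5 tested genes and fell in none, with a median of 0.20. Stom, which encodes the raft protein stomatin, went from 29.6 ± 1.29 to 35.4 ± 1.58 FPKM (0.25, limma adjusted p = 0.00227).

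The clathrin route and the endosomal machinery held calls in both directions. Of 18 tested clathrin and adaptor genes, 8 rose and 4 fell (median 0.07). Cltc, the clathrin heavy chain, rose from 106 ± 2.97 FPKM in Ctrl to 128 ± 5.84 in Ep1 and 162 ± 5.48 in Ep2, while Ap2a1, an AP-2 adaptor subunit, fell from 28.9 to 20.0 FPKM. Of 24 endosome and fusion genes, 12 rose and 5 fell, with a median of 0.15 beside -0.03 over all tested genes. The late endosome gene Rab7 rose from 98.9 to 139 FPKM, and the sorting nexin gene Snx1 fell from 21.7 to 17.2 FPKM.

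Receptors that carry cargo into or across cells included 6 that rose and 3 that fell of 11 tested (median 0.14). Vldlr, a lipoprotein receptor, rose from 6.30 ± 0.194 to 14.0 ± 1.29 FPKM (1.04, limma adjusted p = 1.4e-05). Cd320, the receptor for vitamin B12 bound to transcobalamin, fell from 11.3 ± 0.595 to 5.56 ± 0.247 FPKM (-0.91, limma adjusted p = 6e-06). The transferrin receptor gene Tfrc, singled out after its values were seen, fell from 63.2 ± 3.02 to 44.3 ± 7.63 FPKM (-0.52, limma adjusted p = 0.00342). Ep2 replicate 1 was its lowest library, at 35.6 FPKM beside 47.3 and 49.9 in the other Ep2 libraries. Over 13 refits the Tfrc difference ran from -0.61 to -0.37 and was called each time (highest limma adjusted p = 0.0139).

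Among 12 tested lipid uptake genes, the list nearest to Mfsd2a, 3 rose and 4 fell (median 0.04). The acyl-CoA synthetase gene Acsl4 rose from 15.9 to 21.4 FPKM, and its relative Acsl5 fell from 30.3 to 20.6 FPKM. Of the 10 listed partners of Plvap in fenestrated or immature vessels, only 4 were tested. Kdr, Esm1, Aplnr, Cd93, Mcam and Lama4 were too low, with Lama4 at 0 in all libraries. Of the 4 tested, 2 rose and none fell. These were Flt1, a VEGF receptor gene, from 6.90 ± 0.206 to 10.9 ± 0.732 FPKM (0.59, limma adjusted p = 9.7e-05), and Angpt2, from 9.94 to 15.3 FPKM.

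At the lower dose, 9 of the 83 tested genes of the 8 lists passed, or 10.8%, beside the background of 11.3%. Cltc (0.27, limma adjusted p = 0.0114) and Rab5a, the early endosome GTPase gene (0.30, 0.00989), were higher in Ep1 than in Ctrl. Lower were the receptor gene Lrp1 (-0.28, limma adjusted p = 0.0131), the syntaxin gene Stx4a (-0.19, 0.0449) and the fatty acid transporter gene Slc27a1 (-0.19, 0.0291). In all, 2 of 18 clathrin genes and 2 of 24 endosome genes rose, where 741 of all 11727 tested genes were called higher. Falling were 1 of 11 receptors, 1 of 24 endosome genes and 3 of 12 lipid genes, where 4.97% of all tested genes were called lower. None of the 5 named genes kept its call in all 13 refits: Rab5a did in 12, Cltc in 11, Lrp1 in 10, Slc27a1 in 6 and Stx4a in 5. Without Ctrl replicate 2 all 5 calls were lost (limma adjusted p = 0.0501 for Rab5a, 0.059 for Cltc, 0.0689 for Lrp1, 0.114 for Slc27a1 and 0.165 for Stx4a). The caveolin relatives, neck relatives, raft scaffolds and Plvap partners held no limma call in Ep1.

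**Figure D4:**
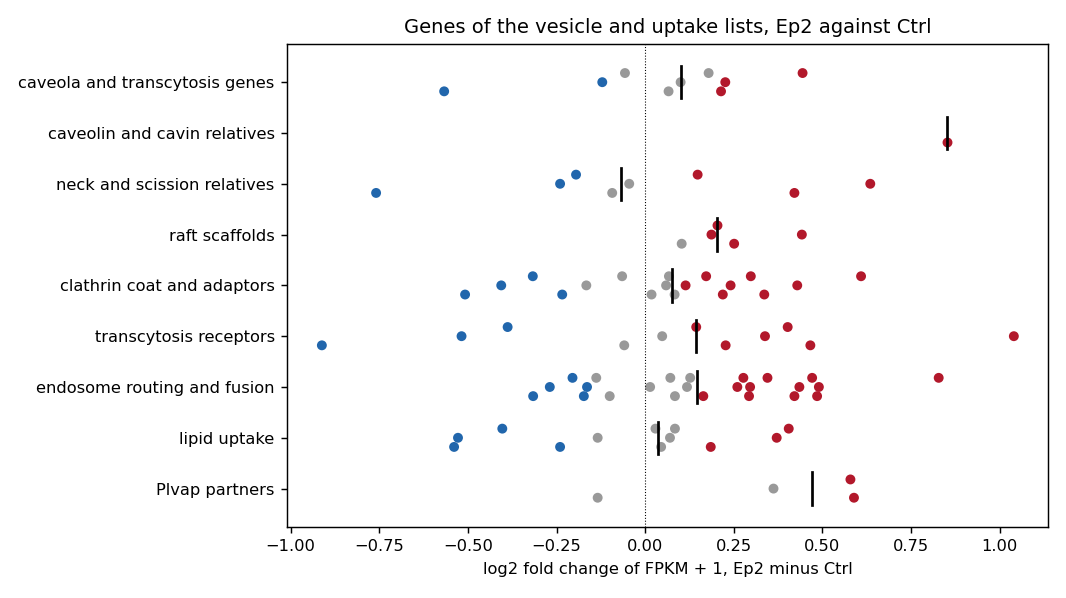
Log2 fold change of FPKM + 1 between Ep2 and Ctrl for the tested genes of each list, red for genes called higher, blue for genes called lower, grey for genes not called and a black bar for the list median. The caveola and transcytosis genes run from -0.57 to 0.44 around a median of 0.10, and the receptor list runs from -0.91 for Cd320 to 1.04 for Vldlr.

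The genes whose log2(FPKM + 1) ran most like that of 3 of the genes were found by Pearson correlation over the 9 libraries, which share group membership and total depth, as a description. For Mfsd2a these were Donson (r = 0.988), Epop (0.986) and Tmem97 (0.985), with group means of 7.08, 6.95 and 4.09 FPKM for Donson in Ctrl, Ep1 and Ep2. For Cav1 they were Gm28809 (0.969), Aftph (0.967) and Zfp942 (0.962), and Aftph went from 15.9 FPKM in Ctrl and Ep1 to 18.9 in Ep2. For Plvap they were Gmppa (0.946), Tmem63a (0.945) and Traf1 (0.944), with Tmem63a at 12.4, 12.5 and 16.3 FPKM.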

How the data were processed

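RNA was measured in 9 libraries, grouped by the names in their labels. The authors aligned paired-end reads to the mouse genome and deposited 1 FPKM value per gene and library, normalized for library size and gene length. The submitters' processing notes list Bowtie 0.12.2 and mm8, and the methods name GRCm39. The gene coordinates overlapped RefSeq positions on GRCm38.p6 for 99.9% of 37620 genes and GRCm39 positions for 11.0% of 50453, so GRCm38 is used here. The counting tool and its use of strand are not given in the sources used here. FPKM times gene length was a whole multiple of 1 step per library (tolerance 0.05), which gave the fragments per gene. The library size implied by the step, minus the sum of fragments, was 0.266% to 1.53% of that sum in Ctrl. The same difference was -0.495% to -0.146% in Ep1 and 1.87% to 2.61% in Ep2. The voom fit was scaled by summed fragments instead.

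Genes with at least 1 FPKM in at least 3 libraries (11727) were fitted on log2(FPKM + 1) in 1 limma model (R 4.3.3, limma 3.58.1, lmFit, eBayes with trend and robust) without covariates, with Benjamini-Hochberg adjustment within each comparison and calls at 0.05. Alternatives were median centring, no filter, a filter at 5 FPKM, a pseudocount of 0.1, a replicate block, only the groups compared, voom on fragments, the fold threshold of 0.6 and the omission of each library. The procedure was tested on simulated data. Genes named from the lists had the smallest adjusted p in each direction. The members and lists were chosen with earlier results of these data known. Plots used Python 3.11.15 and matplotlib 3.10.9.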

Additional observations from a re-analysis of the deposited data

Results flagged for a closer look

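For 5 of the 9 tested genes the level at 20 J/cm2 differed from that at 10 J/cm2 in the limma test of Ep2 against Ep1, in log2(FPKM + 1). This share is near the 44% of all tested genes called in that comparison. The difference was 0.289 for Cav1, 0.211 for Cavin1, 0.401 for Plvap and 0.23 for Dnm2, all higher in Ep2, and -0.604 for Mfsd2a. The call was lost in 6 refits for Dnm2 and in 4 for Plvap, which entered the test only through its Ep2 libraries. For Cav1, Dnm2 and Mfsd2a, the fitted differences of Ep1 and Ep2 from Ctrl had opposite signs (-0.06 and 0.23, -0.05 and 0.18, and 0.04 and -0.57), but those of Ep1 were not called.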

How the results depend on the processing

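Of the log2 fold changes of the 9 genes recomputed under the alternatives, 306 kept direction and side of the threshold, 20 lost the call, 9 gained it and 12 turned sign. The 12 were fold changes near 0 that were never called: Cavin1 in Ep1 against Ctrl (-0.0066 with median centring, -0.015 with voom and -0.011 to 0.027 when 1 library was left out), Plvap in Ep1 against Ctrl (-0.018 to 0.118 when 1 library was left out) and Cav2 in Ep2 against Ep1 (0.05 with median centring, 0.028 with voom and -0.066 to 0.075 when 1 library was left out). The number of genes called in Ep1 against Ctrl was 0 under all alternatives. In Ep2 against Ctrl it was 0 with the fold threshold, 4 to 7 without 1 library and 4 or 5 otherwise. In Ep2 against Ep1 it was 1 with the fold threshold, 3 with no filter, 3 to 6 without 1 library and 4 or 5 otherwise. With median centring, voom or a replicate block, Dnm2 took the place of Cavin3 among the genes called in Ep2 against Ctrl. The share of all genes called moved as well. Without 1 library it was 45.8% to 55.2% in Ep2 against Ctrl and 35.3% to 44.7% in Ep2 against Ep1. In the filtered fits with no library left out it was 49.9% to 64.2% and 40.5% to 54.9%. With the fold threshold it was 9.17% and 5.9%. With no filter it was 21.7% in Ep2 against Ctrl and 16.7% in Ep2 against Ep1. The calls lost with no filter were those of Dnm2 (adjusted p = 0.0866) and Plvap (0.054) in Ep2 against Ep1 and Cavin3 (0.0819) in Ep2 against Ctrl, and those lost with only the groups compared were Dnm2 (0.0611) in the first and Cavin3 (0.0648) in the second. The cause was not tested.

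Replicate numbers are shared between groups, but nothing says that they pair the libraries. Deviations from the group means correlated at -0.0565 to 0.0744 for libraries with the same number and at -0.108 to 0.153 for others. With a replicate block, 0, 5 and 5 genes were called in Ep1 against Ctrl, Ep2 against Ctrl and Ep2 against Ep1. Of all tested genes, 8.96%, 52.1% and 42.5% were called in the same fits.

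Plvap and Cavin2 rest on few fragments, and for all genes the spread between libraries limits the precision. Over all tested genes, 1324 were called in Ep1 against Ctrl, but 192 to 1038 when 1 library was left out, 396 with no filter, 1995 with voom and 2217 with only the groups compared. Centring moved the share of upward calls among all called genes from 44.9% to 52.7% in Ep2 against Ctrl.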
